A study of Populus ussuriensis with 18 samples.

Results

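WRKY transcription factors are plant DNA-binding proteins named for a conserved stretch of amino acids, and most of them recognise the W-box in the promoters of their target genes. In Arabidopsis thaliana the family is best known for defence and senescence, many members bind W-boxes in the promoters of other WRKY genes, and a few members act in roots, where WRKY75 and WRKY6 take part in phosphate responses and WRKY75 also in the growth of root hairs and lateral roots. The 31 genes described here are those listed as family WRKY in the study's own table of 443 differentially expressed transcription factors, out of 30485 genes in the deposited files. The table took a gene in when the study called it in low-nitrogen (LN) against control roots, so differences from control roots are described only: calls are counted beside the share of all genes called, and no p is given for a member. All 31 had a UniProt description naming a WRKY protein and a Pfam WRKY domain. The descriptions numbered 21, because 16 members shared one of 6 descriptions with another member (WRKY75 with 4 genes, WRKY6 and WRKY22 with 3 each, and WRKY41, WRKY51 and WRKY24 with 2 each). WRKY24 and WRKY76 were names of rice proteins, and the other names were those of Arabidopsis proteins.

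The RNA came from roots of wild-type Populus ussuriensis plantlets, propagated as clones and grown in vitro. LN roots had spent 12, 24, 48, 96 or 336 h on medium with 0.05 mM nitrate and 0.025 mM ammonium, and control roots (0 h) were taken from medium with 10 mM nitrate and 5 mM ammonium. Each of the 6 groups had 3 libraries, labelled as biological replicates, and each library held between 15945075 and 18193661 fragments on genes. No libraries of roots on control medium at the later times are among those analysed here, so LN and the passing of time cannot be told apart, nor can the batch, which the labels give as 1 for each time point. The 12 h roots were also the only group not taken a whole number of days after the start. Values are FPKM (fragments counted on a gene, scaled by its length and by library depth), a scale on which levels of different genes can be set side by side.

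Replicate 3 of the 48 h group stood apart from replicates 1 and 2, which bears on every 48 h value. It was lower than both other replicates by at least 1 on the log2(FPKM + 1) scale in 1431 of 22779 genes and higher by as much in 800, whereas the same count for replicate 1 or replicate 2 did not pass 5 genes. Results at 48 h are therefore given per library, and counts with and without replicate 3. Of the root markers named in the study's tables, the 3 SCARECROW genes and SHORT-ROOT were detected in every library and Expansin-A7 was at 0 in 12 h replicates 2 and 3. The 5 had summed levels of 19.0 to 20.5 FPKM in control roots, 7.34 to 9.20 after 12 h, 14.6 to 15.0 after 24 h, 12.6 to 15.2 after 48 h, 21.0 to 22.7 after 96 h and 28.4 to 30.1 after 336 h. They did not move together at 336 h. The log2 fold change over control was 1.19 in SHORT-ROOT and -0.38 in Expansin-A7. In SCARECROW Potri.006G114200 and Potri.016G143900 it was 0.08 and -0.11, and SCARECROW Potri.T138100 did not pass the filter. A pair of chlorophyll a-b binding protein genes, which mark green tissue, summed to 320 to 336 FPKM in control roots and 124 to 135 after 12 h, 224 to 228 after 24 h, 123 to 211 after 48 h, 301 to 321 after 96 h and 67.1 to 90.4 after 336 h. The pair went different ways at 96 h, with log2 fold changes over control of -0.41 and 0.28. Both marker lists held genes the study had picked from these libraries, and their part in the results was not tested. In these root samples, fewer cells of a type and less RNA per cell cannot be told apart.

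The 31 genes did not follow 1 time course. The group with the highest mean was 336 h for 8 members, 96 h for 9, 48 h for 7, 12 h for 3, 24 h for 0 and control for 4. The lowest mean was in control roots for 18 members and at 336 h for 6. Without 48 h replicate 3, 8 members had their highest mean at 48 h and 3 in control roots. The summed level of the 31 genes was 222 to 229 FPKM in control roots, 373 to 390 after 12 h, 267 to 271 after 24 h, 476 to 485 after 96 h and 331 to 354 after 336 h. At 48 h it was 462, 467 and 266 FPKM in replicates 1, 2 and 3. Across the 5 LN groups the sum was thus lowest at 24 h and highest at 96 h, with 48 h replicates 1 and 2 above every 12 h and 336 h library and 48 h replicate 3 close to the 24 h level.

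**Figure D1:**
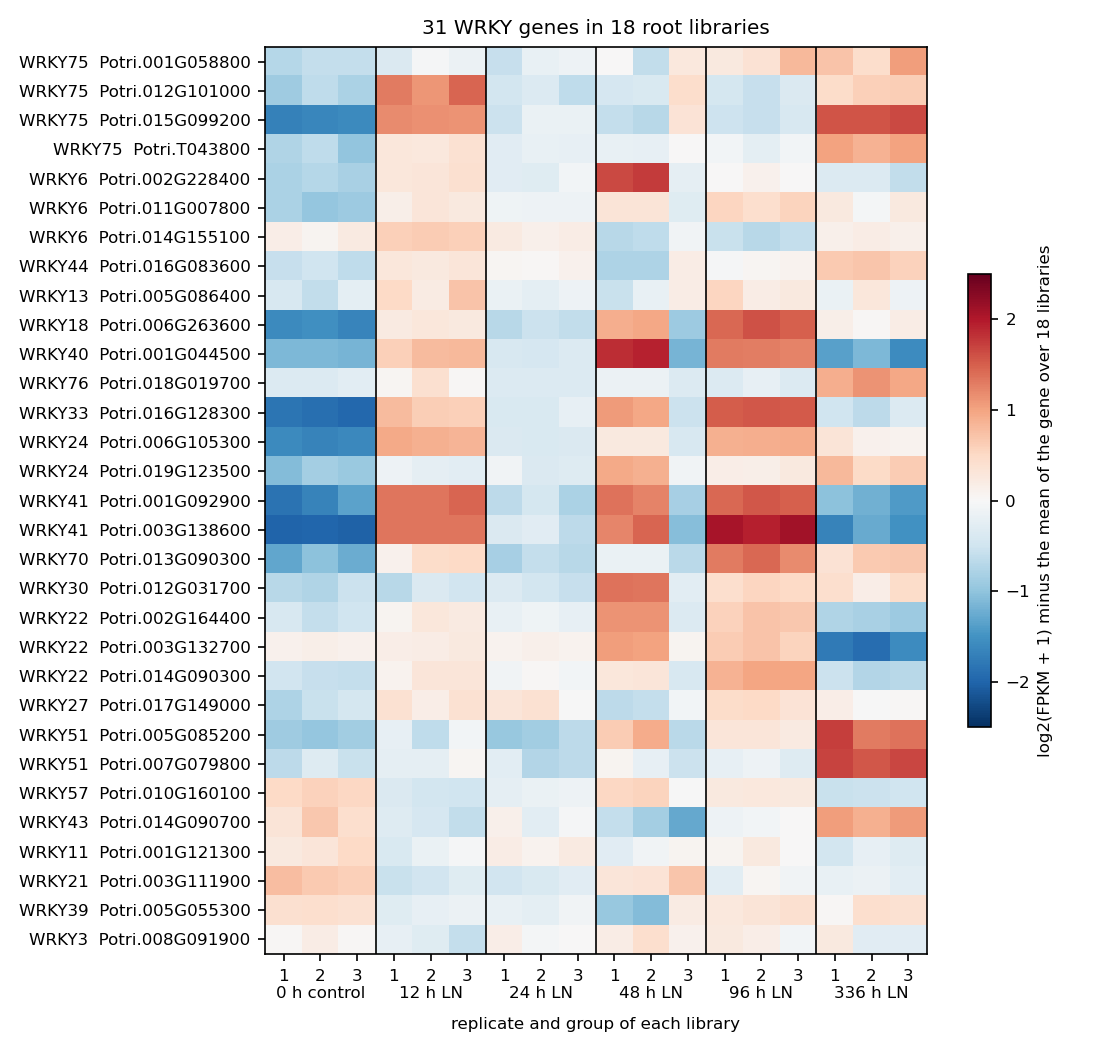
Level of each of the 31 WRKY genes (rows, by name and gene ID) in the 18 libraries (columns, by group and replicate), as log2(FPKM + 1) minus the mean of that gene over all libraries. Red marks libraries above the mean and blue those below it; the WRKY33, WRKY18, WRKY40 and WRKY41 rows are red at 12 h and 96 h, the WRKY51 rows at 336 h, and 48 h replicate 3 differs from replicates 1 and 2 in many rows.

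Against control roots, a gene is counted as called when its absolute log2 fold change on the log2(FPKM + 1) scale was at least 1 and its limma adjusted p was under 0.05, among genes that reached 1 FPKM in 3 or more of the 6 libraries compared. At 12 h, 12 of 27 tested members were called higher and 1 lower, with 6.21% and 2.62% of all tested genes called higher and lower. At 24 h, 4 of 25 were called higher and 1 lower (4.29% and 1.41% of all tested genes). At 48 h, 5 of 25 were called higher and 1 lower (2.84% and 2.14%). At 96 h, 16 of 28 were called higher and 0 lower (8.18% and 1.84%). At 336 h, 14 of 28 were called higher and 2 lower (8.28% and 4.07%). These shares follow from how the members were chosen and are given only as a description. Under 1 FPKM in every control library were WRKY24 Potri.006G105300, WRKY6 Potri.002G228400, WRKY30, WRKY70, WRKY76 and both WRKY41 genes. So were WRKY51 Potri.007G079800 and WRKY75 Potri.001G058800 and Potri.012G101000. Wherever they were tested against control, they passed the filter through LN libraries alone, so their groups had to differ. The counts of higher members include them where called.

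Beside the 0 members called lower at 96 h by limma, 5 were lower at an unadjusted p under 0.05. Limma-voom on recovered fragments called 2 lower (854 of all 25130 genes tested). Leaving out 1 library of the LN group took the 12 h count of higher members to 6 or 7, the 96 h count to 9 or 10 and the 336 h count to 7 or 8, in each case with 21 members tested, because members near 0 in control roots need all 3 LN libraries to pass the filter. The 24 h count was 3, 2 and 2 without LN replicate 1, 2 or 3. At 48 h without replicate 3, 7 of 21 tested members were called higher and 2 lower, with 7.72% and 4.38% of all tested genes called, and those lower were WRKY39 and WRKY43. The count of higher members was 0 without replicate 1 or replicate 2, and 1 without each of the 3 control libraries in turn.

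Over all 5 time points, 22 members were called higher at least once, 4 lower at least once, 0 in both directions and 5 at none. Of all 24085 genes tested at least once, 15.0% were called higher and 5.92% lower at least once, and 0.253% in both directions. WRKY33, WRKY75 Potri.015G099200 and WRKY24 Potri.006G105300 were called higher at all 5, and WRKY6 Potri.011G007800 at 4. These counts, too, follow from how the members were chosen, and nothing is read from them. WRKY24 Potri.006G105300 was under 1 FPKM in all control libraries and passed the filter of all 5 comparisons through its LN libraries alone. Its groups therefore had to differ, and it was not tested without any 1 LN library of a comparison. Over the tested members, the median log2 fold change was 0.89 after 12 h, 0.55 after 24 h, 0.67 after 48 h, 1.13 after 96 h and 0.84 after 336 h. The median of all tested genes was 0.15, 0.08, 0.04, 0.13 and 0.21. Quantile normalization moved that median of all genes to -0.02, -0.03, -0.04, -0.08 and 0.01. With it, 10 members were called higher and 1 lower at 96 h (1233 and 640 of all 23363 tested genes). At 12 h it gave 10 higher and 3 lower (1000 and 909 of 22977). The 96 h calls it ended were those of WRKY75 Potri.001G058800 and Potri.015G099200, WRKY51 Potri.005G085200, WRKY24 Potri.019G123500, WRKY30 and WRKY27, and at 336 h it ended those of WRKY75 Potri.001G058800 and Potri.012G101000 and WRKY6 Potri.011G007800.

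The 4 genes named WRKY75 shared their lowest group, control, but differed in level and time course. Potri.T043800 had the highest mean level of the 31 members over the 18 libraries. It measured 20.4, 22.2 and 17.2 FPKM in control roots, then 42.7, 42.7 and 46.3 after 12 h, 28.7, 30.7 and 30.6 after 24 h, 30.6, 30.5 and 35.3 after 48 h, 33.6, 29.5 and 33.4 after 96 h and 71.9, 65.3 and 71.7 after 336 h. Every LN library lay above every control library, and the 336 h libraries above all others. On average, the 336 h level was 3.50 times and the 12 h level 2.21 times that of control roots, with log2 fold changes of 1.76 (SE 0.0996) and 1.11 (SE 0.0950). Limma-voom put the 12 h value at 0.98, just under the limit. At 24, 48 and 96 h the log2 fold changes were 0.57, 0.67 and 0.67, below the limit of 1.

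Potri.015G099200 had a larger relative difference at a lower level. It measured 1.07, 1.15 and 1.22 FPKM in control roots, then 14.1, 13.7 and 13.6 after 12 h, 3.59, 4.96 and 4.93 after 24 h, 3.43, 3.15 and 7.50 after 48 h, 3.65, 3.50 and 4.08 after 96 h and 19.0, 18.9 and 20.1 after 336 h. The 336 h mean was 16.9 times and the 12 h mean 12.1 times that of control roots, with log2 fold changes of 3.25 (SE 0.0658) and 2.79 (SE 0.0578). The 3 groups in between did not fall back to the control range. Of the 48 h libraries, replicate 3 was the highest in this gene. The 48 h log2 fold change was 1.33 (SE 0.277), and the call was lost when any of the 6 libraries compared was left out, without 48 h replicate 3 because the fold change was just under 1. The 96 h call was not made with quantile normalization, where the log2 fold change was 0.77.

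Between LN time points, where no control library enters, the same gene was lower at 24 h than at 12 h, with a log2 fold change of -1.44 (SE 0.103, adjusted p = 5.78e-05). At 336 h it was higher than at 96 h by 2.10 (SE 0.0682, adjusted p = 4.54e-07), the largest rise of any member in that comparison. Its 12 h and 336 h levels did not overlap but differed by less than the limit, with a log2 fold change of 0.46 for 336 h over 12 h. Potri.T043800 also rose at 336 h against 96 h (1.09, SE 0.0758, adjusted p = 1.66e-05), and was below the limit at 24 h against 12 h (-0.53).

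Potri.012G101000 was under 1 FPKM in all control, 24 h and 96 h libraries. It measured 0.0684, 0.271 and 0.134 FPKM in control roots, then 3.83, 3.21 and 4.39 after 12 h, 0.441, 0.560 and 0.274 after 24 h, 0.468, 0.515 and 1.68 after 48 h, 0.454, 0.325 and 0.532 after 96 h and 1.71, 1.99 and 2.00 after 336 h. The 12 h and 336 h libraries were the high ones, apart from 48 h replicate 3, and the 12 h libraries lay above the 336 h libraries. Its control libraries together held 7 fragments, so no ratio to control is given. The level was lower at 24 h than at 12 h by 1.75 on the log2 scale. It was higher at 336 h than at 96 h by 1.01 (SE 0.0777), a call lost without 96 h replicate 2 (0.96). In both comparisons the gene passed the filter through the higher group alone and so had to differ, and no p is given.

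Potri.001G058800 had the lowest level of the 4 WRKY75 genes at 12 h and did not pass the filter at 24 h against 12 h. It measured 0.202, 0.301 and 0.297 FPKM in control roots, then 0.524, 0.930 and 0.775 after 12 h, 0.326, 0.725 and 0.810 after 24 h, 0.987, 0.286 and 1.35 after 48 h, 1.34, 1.54 and 2.46 after 96 h and 2.23, 1.68 and 3.06 after 336 h. The 96 h and 336 h libraries all lay above the control, 12 h and 24 h libraries, and its 336 h and 96 h values overlapped (log2 fold change 0.26, SE 0.185, adjusted p = 0.27). So 3 WRKY75 genes had raised levels at 12 h and 336 h with lower values between, and in Potri.001G058800 the highest libraries were the late ones. The rules for counting reads shared by near-identical copies are not given in the sources used here, so the split of levels among genes with a shared description is uncertain.

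**Figure D2:**
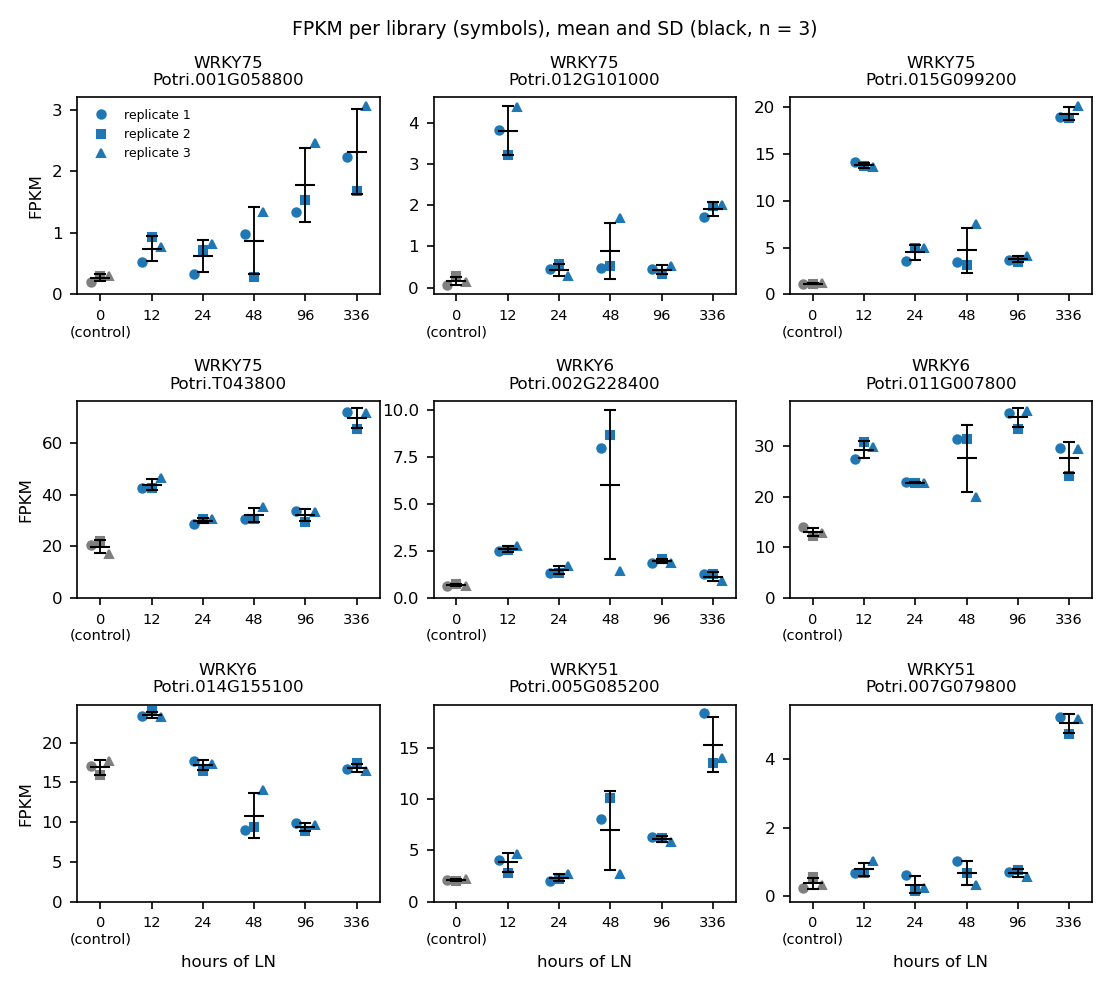
FPKM in every library for the 4 WRKY75, 3 WRKY6 and 2 WRKY51 genes, against hours of LN (evenly spaced groups; control roots grey, LN roots blue). Symbols are replicates 1 (circle), 2 (square) and 3 (triangle), and black bars are the group mean and SD of 3 libraries; WRKY75 Potri.015G099200 has its 12 h libraries at 13.6 to 14.1 FPKM and its 336 h libraries at 18.9 to 20.1 FPKM, with the groups between lower.

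WRKY6 in Arabidopsis represses the phosphate exporter gene PHO1 when phosphate is plentiful and also acts in senescence. The 3 genes with its name had different time courses. Potri.011G007800 measured 14.0, 12.3 and 12.8 FPKM in control roots, then 27.4, 30.8 and 29.8 after 12 h, 22.9, 22.8 and 22.8 after 24 h, 31.5, 31.5 and 19.9 after 48 h, 36.7, 33.5 and 37.0 after 96 h and 29.6, 24.1 and 29.5 after 336 h. All LN libraries lay above all control libraries, and the log2 fold change was 1.39 (SE 0.0690) at 96 h, the largest of its 5. At 12, 24, 48 and 336 h it was 1.11, 0.76, 1.00 and 1.03. The calls at 12, 48 and 336 h thus rested on values near the limit, and quantile normalization and limma-voom each ended all 3.

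Potri.014G155100 was never called against control roots. It measured 17.1, 15.9 and 17.7 FPKM in control roots, then 23.3, 24.0 and 23.3 after 12 h, 17.6, 16.4 and 17.4 after 24 h, 8.98, 9.35 and 14.1 after 48 h, 9.85, 8.89 and 9.60 after 96 h and 16.6, 17.4 and 16.5 after 336 h. Its 12 h libraries were its highest, and its 96 h libraries lay below all control, 12 h, 24 h and 336 h libraries. The log2 fold changes over control were 0.45 at 12 h and -0.78 at 96 h. Potri.002G228400 was low except in 48 h replicates 1 and 2. It measured 0.652, 0.754 and 0.638 FPKM in control roots, then 2.48, 2.53 and 2.76 after 12 h, 1.34, 1.34 and 1.71 after 24 h, 7.96, 8.63 and 1.45 after 48 h, 1.88, 2.07 and 1.88 after 96 h and 1.25, 1.27 and 0.876 after 336 h, and 48 h replicate 3 lay among the other LN libraries. It was called higher at 12 h, with a log2 fold change of 1.09 (SE 0.0626), which quantile normalization put at 0.82. It passed the filter of that comparison through the 12 h libraries alone, so its groups had to differ.

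WRKY44, whose Arabidopsis counterpart (TTG2) acts in trichome and seed coat development, averaged 9.99 ± 0.556 FPKM in control roots, 18.8 ± 0.329 after 12 h, 16.0 ± 0.424 after 24 h, 15.7 ± 0.688 after 96 h and 24.4 ± 0.964 after 336 h (SD, n = 3). Its 48 h libraries measured 8.54, 8.49 and 17.5 FPKM, where replicates 1 and 2 lay below the control range and replicate 3 above it. It was called higher only at 336 h among the 5 control comparisons, with a log2 fold change of 1.21 (SE 0.0702). WRKY13, which in Arabidopsis acts in stem lignification and flowering, was called at no time point. Its group means ran between 1.02 FPKM in control roots and 2.75 FPKM at 12 h.

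Among members with defence roles in Arabidopsis, WRKY33, WRKY18 and WRKY40 had higher group means at 12 h and 96 h than at 24 h and 336 h. These genes were picked after their values were seen, and not all members shared the pattern. WRKY70 and both WRKY51 genes had higher means at 336 h than at 12 h. WRKY33, a target of the pathogen-activated MAP kinases that controls the synthesis of the phytoalexin camalexin, measured 2.04, 1.94 and 1.77 FPKM in control roots, then 17.8, 15.6 and 15.4 after 12 h, 7.36, 7.36 and 8.36 after 24 h, 21.8, 20.3 and 6.42 after 48 h, 29.9, 30.7 and 30.3 after 96 h and 6.71, 5.91 and 7.53 after 336 h. Its mean was 15.8 times that of control roots at 96 h, 8.48 times at 12 h, 4.01 times at 24 h and 3.50 times at 336 h. No LN library overlapped with the control libraries. The level rose at 96 h against 24 h by 1.85 (SE 0.0589, adjusted p = 8.76e-07) and fell at 336 h against 96 h by 2.03 on the log2 scale (adjusted p = 1.23e-06). At 48 h the call against control held without replicate 3 and was lost without any other library of that comparison.

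WRKY24, which in rice represses gibberellin and abscisic acid signalling in the seed, was the name of 2 genes. Potri.006G105300 measured 0.956, 0.830 and 0.907 FPKM in control roots, then 10.2, 9.78 and 9.51 after 12 h, 3.57, 3.49 and 3.56 after 24 h, 5.90, 5.94 and 3.43 after 48 h, 9.86, 9.93 and 10.2 after 96 h and 6.28, 5.33 and 5.26 after 336 h. Its 12 h and 96 h libraries were its highest, and its control libraries were all under 1 FPKM. It fell at 24 h against 12 h by 1.25 on the log2 scale (adjusted p = 6.88e-06) and rose at 96 h against 24 h by 1.27 (SE 0.0437, adjusted p = 1.08e-06). Potri.019G123500 measured 7.10, 8.59 and 8.07 FPKM in control roots, then 14.8, 13.8 and 13.3 after 12 h, 15.1, 12.4 and 12.7 after 24 h, 32.3, 30.8 and 15.1 after 48 h, 18.4, 18.1 and 19.4 after 96 h and 29.3, 23.0 and 25.8 after 336 h. In this gene the 12 h and 24 h libraries overlapped, with a log2 fold change of -0.06 for 24 h over 12 h (adjusted p = 0.602), and the 336 h libraries lay above the 96 h libraries. The dip at 24 h in Potri.006G105300 was therefore not called in the other WRKY24 gene. Whether the 2 genes differ was not tested.

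The 2 genes named WRKY41 were called in 4 of the 5 comparisons between LN time points. WRKY41 delays germination in Arabidopsis through the seed regulator ABI3, and Potri.003G138600 was also matched to WRKY53, a senescence regulator. Potri.003G138600 measured 0.787, 0.816 and 0.770 FPKM in control roots, then 17.2, 17.3 and 17.1 after 12 h, 4.61, 4.91 and 3.58 after 24 h, 15.9, 18.8 and 2.46 after 48 h, 28.8, 26.8 and 29.9 after 96 h and 1.27, 2.00 and 1.50 after 336 h. Its 96 h mean was 36.1 times and its 12 h mean 21.7 times that of control roots, while at 336 h it was 2.01 times. Potri.001G092900 measured 0.243, 0.402 and 0.767 FPKM in control roots, then 10.2, 10.3 and 11.2 after 12 h, 1.83, 2.27 and 1.57 after 24 h, 10.4, 9.50 and 1.50 after 48 h, 11.1, 12.0 and 11.5 after 96 h and 1.19, 0.925 and 0.660 after 336 h. The 96 h mean of this gene was 24.5 times and its 12 h mean 22.5 times that of control roots. In both genes the 12 h and 96 h libraries and 48 h replicates 1 and 2 were high, and the control and 336 h libraries low.

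Between LN times the WRKY41 genes moved in the same direction in each of those 4 comparisons. At 24 h against 12 h, Potri.001G092900 fell by 2.01 on the log2 scale (SE 0.0924, adjusted p = 1.06e-05), the largest fall of any member there, and Potri.003G138600 by 1.77 (adjusted p = 1.75e-05). At 96 h against 24 h, Potri.003G138600 rose by 2.47 (SE 0.0996, adjusted p = 2.30e-06), the largest rise of any member there, and Potri.001G092900 by 2.12 (adjusted p = 2.80e-06). Against 96 h, the 336 h level of Potri.003G138600 fell by 3.52 (SE 0.106, adjusted p = 3.11e-07), and Potri.001G092900 by 2.71 (adjusted p = 8.10e-07). Against 12 h the 336 h levels were lower too, by 2.82 in Potri.003G138600 (SE 0.102, adjusted p = 5.49e-07) and 2.59 in Potri.001G092900 (adjusted p = 8.71e-07). Potri.003G138600 had the largest fall of any member in both 336 h comparisons.

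WRKY18 and WRKY40 act together in Arabidopsis as repressors of defence and of abscisic acid responses. WRKY18 measured 5.39, 5.61 and 5.10 FPKM in control roots, then 21.2, 22.3 and 21.6 after 12 h, 10.8, 12.3 and 11.5 after 24 h, 34.7, 36.3 and 9.22 after 48 h, 51.0, 56.8 and 52.9 after 96 h and 20.2, 18.5 and 20.8 after 336 h. WRKY40 measured 5.76, 5.71 and 5.53 FPKM in control roots, then 21.3, 24.5 and 24.9 after 12 h, 10.2, 10.1 and 10.7 after 24 h, 52.2, 54.8 and 5.53 after 48 h, 35.1, 34.6 and 33.6 after 96 h and 4.77, 5.75 and 3.94 after 336 h. The 96 h levels were 9.99 times the control mean in WRKY18 and 6.08 times in WRKY40. At 336 h WRKY18 was still 3.70 times the control mean, and its libraries did not overlap with the control libraries. WRKY40 was 0.850 times the control mean, with overlapping libraries. In the test between LN times, WRKY40 fell at 336 h against 12 h by 2.09 on the log2 scale (SE 0.119, adjusted p = 3.99e-06), whereas in WRKY18 the log2 fold change was -0.13 (SE 0.0692, adjusted p = 0.15). That the 2 genes differ in this comparison was not itself tested.

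WRKY70, which in Arabidopsis stands between salicylate and jasmonate signalling, measured 0.154, 0.408 and 0.201 FPKM in control roots, then 2.08, 2.94 and 3.01 after 12 h, 0.608, 0.895 and 0.773 after 24 h, 1.56, 1.55 and 0.791 after 48 h, 6.00, 6.70 and 5.50 after 96 h and 2.67, 3.47 and 3.57 after 336 h. It was called higher at 12, 96 and 336 h, and was higher at 96 h than at 24 h by 2.01 on the log2 scale (SE 0.0851). At 24 h it was lower than at 12 h (-1.06, SE 0.114), just under the limit without 24 h replicate 1 (-0.99). In both comparisons between LN times WRKY70 passed the filter through the higher group alone and so had to differ, and no p is given. The same holds for its calls against control at 12, 96 and 336 h. WRKY30 was under 1 FPKM in all control, 12 h and 24 h libraries, and measured 3.49, 3.45 and 0.463 FPKM after 48 h, 1.37, 1.55 and 1.50 after 96 h and 1.35, 0.985 and 1.41 after 336 h. It was called higher at 96 h, where it passed the filter through the LN libraries alone and so had to differ. WRKY76, whose rice counterpart represses blast resistance, had the lowest mean level of the 31 genes. It was at 0 in all 24 h libraries, had 1 fragment in all control libraries together, measured 0.316, 0.676 and 0.292 FPKM at 12 h, and 1.37, 1.74 and 1.49 at 336 h. Its level was higher at 336 h than at 96 h by 1.29 (SE 0.0767), a value that depends on the pseudocount of 1. WRKY76 passed the filter of that comparison through the 336 h libraries alone and so had to differ, and no p is given.

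The 3 genes named WRKY22, which in Arabidopsis works downstream of the MAP kinases that flagellin activates, all had their lowest group mean at 336 h. Potri.002G164400 measured 13.5, 11.7 and 12.5 FPKM in control roots, then 19.2, 22.4 and 21.4 after 12 h, 16.0, 16.8 and 15.6 after 24 h, 40.9, 40.6 and 14.2 after 48 h, 27.6, 30.3 and 29.6 after 96 h and 10.3, 9.89 and 9.24 after 336 h. Potri.014G090300 measured 12.4, 11.5 and 11.4 FPKM in control roots, then 18.9, 22.1 and 22.2 after 12 h, 16.5, 18.1 and 16.9 after 24 h, 21.7, 22.0 and 13.1 after 48 h, 33.0, 35.9 and 36.2 after 96 h and 11.9, 10.3 and 10.6 after 336 h. Potri.003G132700 measured 31.8, 32.7 and 31.8 FPKM in control roots, then 33.4, 33.8 and 35.2 after 12 h, 31.3, 32.2 and 31.2 after 24 h, 61.9, 59.9 and 30.9 after 48 h, 46.4, 48.9 and 43.6 after 96 h and 8.00, 7.20 and 9.20 after 336 h. In Potri.002G164400 and Potri.003G132700, 48 h replicates 1 and 2 were the highest of all 18 libraries, and in Potri.014G090300 the 96 h libraries were. Potri.003G132700 stayed near its control level at 12 h and 24 h, with log2 fold changes over control of 0.09 and -0.02, and was called lower at 336 h (log2 fold change -1.86, SE 0.0884). Potri.002G164400 and Potri.014G090300 were called higher at 96 h, with 1.15 (SE 0.0687) and 1.50 (SE 0.0617). At 336 h all 3 had fallen against 96 h, by 1.48, 1.60 and 2.38 on the log2 scale in Potri.002G164400, Potri.014G090300 and Potri.003G132700 (adjusted p = 2.15e-06, 2.41e-06 and 8.60e-07).

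**Figure D3:**
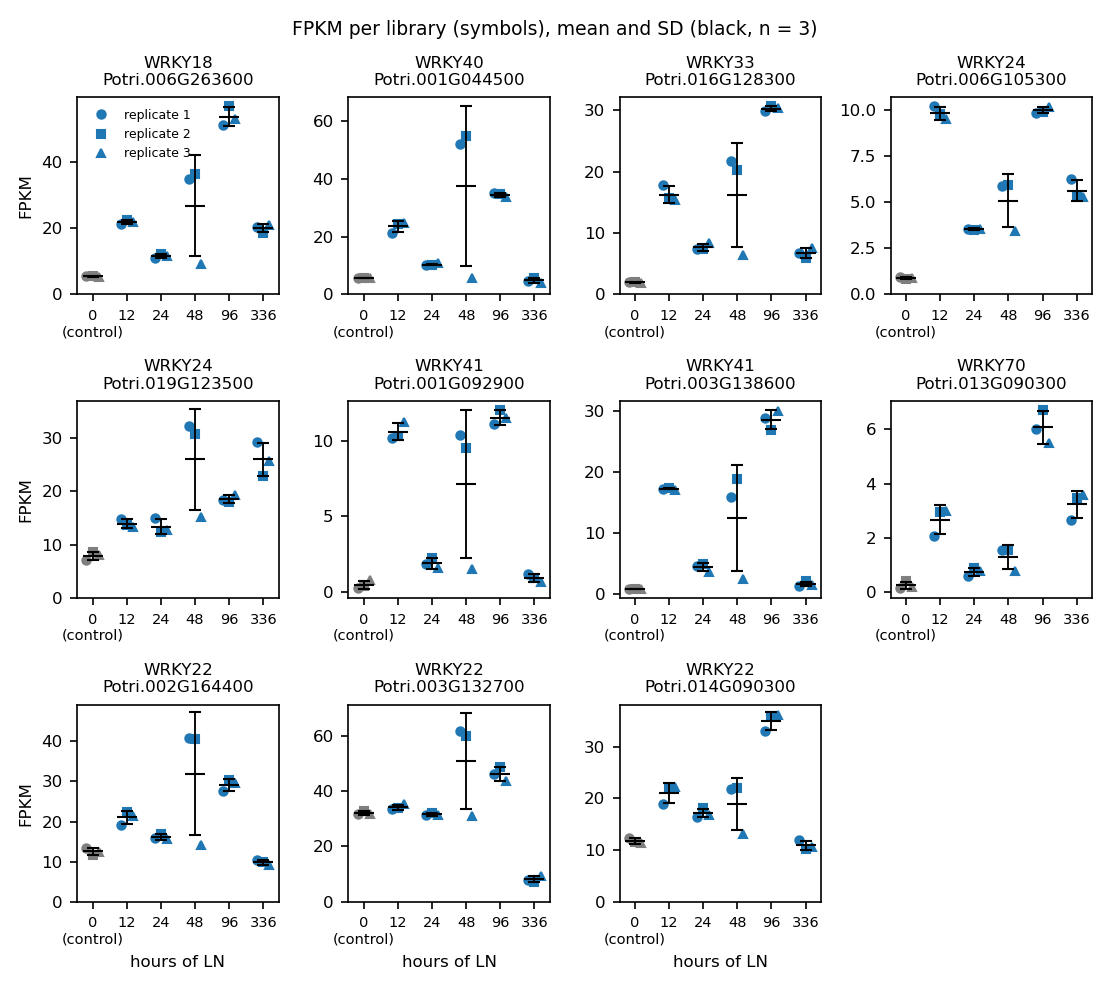
FPKM in every library for the WRKY18, WRKY40, WRKY33, WRKY24, WRKY41, WRKY70 and WRKY22 genes, against hours of LN (evenly spaced groups; control roots grey, LN roots blue). Symbols are replicates 1 (circle), 2 (square) and 3 (triangle), and black bars are the group mean and SD of 3 libraries; the wide bars at 48 h come from replicate 3, as in WRKY40, where it measured 5.53 FPKM beside 52.2 and 54.8 FPKM.

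WRKY27, which in Arabidopsis affects wilting after infection with Ralstonia, averaged 1.72 ± 0.309 FPKM in control roots, 4.04 ± 0.424 after 12 h, 3.79 ± 0.657 after 24 h, 4.50 ± 0.299 after 96 h and 3.25 ± 0.268 after 336 h (SD, n = 3). It was called higher at 96 h with a log2 fold change of 1.02 (SE 0.0915), a call lost without control replicate 1 (0.93) or 96 h replicate 2 (0.99) and with quantile normalization (0.67). The 2 genes named WRKY51, which in Arabidopsis takes part in the repression of jasmonate signalling, were highest at 336 h. Potri.005G085200 measured 2.14, 2.01 and 2.21 FPKM in control roots, then 4.09, 2.78 and 4.61 after 12 h, 2.06, 2.20 and 2.73 after 24 h, 8.04, 10.1 and 2.67 after 48 h, 6.27, 6.23 and 5.81 after 96 h and 18.4, 13.5 and 14.0 after 336 h. Potri.007G079800 measured 0.244, 0.566 and 0.319 FPKM in control roots, then 0.676, 0.666 and 1.01 after 12 h, 0.613, 0.167 and 0.245 after 24 h, 1.03, 0.691 and 0.334 after 48 h, 0.695, 0.775 and 0.555 after 96 h and 5.24, 4.73 and 5.17 after 336 h. At 336 h all 3 libraries of both genes lay above all other libraries. Against 12 h the 336 h levels rose by 1.76 (SE 0.0907, adjusted p = 2.55e-06) in Potri.007G079800, the largest rise of any member in that comparison, and by 1.76 (SE 0.164, adjusted p = 5.19e-05) in Potri.005G085200. Against 96 h the 336 h level rose by 1.19 in Potri.005G085200 (adjusted p = 8.17e-05). In Potri.007G079800 it was higher by 1.85. That gene passed the filter of this comparison through the 336 h libraries alone and so had to differ, and no p is given.

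Of the 4 members called lower in LN roots, WRKY57 and WRKY22 Potri.003G132700 were called at 336 h, WRKY21 at 12 h and 24 h, and WRKY43 at 48 h. WRKY57, a regulator of drought tolerance and of jasmonate-induced senescence in Arabidopsis, measured 31.1, 32.9 and 31.7 FPKM in control roots, then 16.7, 15.7 and 15.1 after 12 h, 18.5, 19.4 and 19.9 after 24 h, 31.5, 32.4 and 21.5 after 48 h, 26.0, 26.3 and 26.0 after 96 h and 14.5, 14.6 and 15.1 after 336 h. Its 12 h, 24 h and 336 h libraries lay well below its control libraries, and the 96 h libraries between. The log2 fold changes over control were -0.97 at 12 h, -0.70 at 24 h and -1.06 (SE 0.0629) at 336 h, and only the last passed the limit. WRKY21 averaged 8.90 ± 0.624 FPKM in control roots, 3.55 ± 0.407 after 12 h, 3.74 ± 0.314 after 24 h, 4.81 ± 0.629 after 96 h and 4.40 ± 0.234 after 336 h (SD, n = 3). It was called lower at 12 h and 24 h. Its 48 h libraries, at 6.62, 6.84 and 8.97 FPKM, were nearer to the control libraries than those of any other LN group.

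WRKY43 was called lower at 48 h, where it measured 4.23, 3.33 and 2.22 FPKM against 8.80, 11.6 and 9.54 FPKM in control roots. The call was lost without control replicate 2 or control replicate 3, with log2 fold changes of -1.28 and -1.41, and the adjusted p just above the threshold. At 336 h WRKY43 measured 15.2, 13.6 and 15.5 FPKM, above every other library. Against 12 h it rose by 1.45 (SE 0.0926, adjusted p = 6.79e-06) and against 96 h by 1.06 (SE 0.0722, adjusted p = 1.49e-05). WRKY43 was thus below control roots at 48 h and above them at 336 h, where its log2 fold change over control was 0.53.

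Besides WRKY13 and WRKY6 Potri.014G155100, the members called at no time point were WRKY11, WRKY39 and WRKY3. WRKY11, a negative regulator of basal resistance in Arabidopsis, had group means between 5.95 FPKM at 336 h and 10.1 FPKM in control roots. WRKY39 averaged 10.0 ± 0.619 FPKM at 12 h and 10.4 ± 0.687 at 24 h, against 15.9 ± 0.230 FPKM in control roots (SD, n = 3). Its 48 h libraries measured 5.66, 5.09 and 13.9 FPKM, with replicates 1 and 2 below all other libraries of the gene. Without 48 h replicate 3 it was called lower at 48 h, with a log2 fold change of -1.41 over control. WRKY3, which adds to resistance against necrotrophs in Arabidopsis, stayed under 2 FPKM in every library. Its 24 h and 12 h libraries, at 1.46, 1.10 and 1.21 and 0.905, 0.761 and 0.443 FPKM, just passed the filter of that comparison, whereas WRKY75 Potri.001G058800, at 0.326, 0.725 and 0.810 and 0.524, 0.930 and 0.775 FPKM, stayed just outside it.

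The 5 comparisons between LN time points used no control library, but the members were chosen on the same LN libraries, so these tests are not wholly independent of the choice. At 24 h against 12 h, 7 of 27 tested members were called lower and 0 higher, with 1.16% and 1.35% of all tested genes called lower and higher. They were the 2 WRKY41 genes, WRKY75 Potri.012G101000 and Potri.015G099200, WRKY24 Potri.006G105300, WRKY40 and WRKY70. Of these, WRKY75 Potri.012G101000 and WRKY70 passed the filter through the 12 h libraries alone, being under 1 FPKM in all 24 h libraries, so that their groups had to differ, and the count without them is 5. At an unadjusted p under 0.05, limma gave 4 members higher and 18 lower. Limma-voom called 8 lower and 0 higher (539 and 808 of all 24827 genes tested). The groups did not overlap in 23 members, with 54.7% of all tested genes not overlapping. The median log2 fold change was -0.43 for the members and -0.06 for all tested genes.

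At 96 h against 24 h, 8 of 28 members were called higher and 0 lower (3.87% and 1.26% of all tested genes). They were the 2 WRKY41 genes, WRKY18, WRKY70, WRKY33, WRKY40, WRKY24 Potri.006G105300 and WRKY51 Potri.005G085200. WRKY70 again passed the filter through its higher group alone, which leaves 7. The adjusted p-values of WRKY18 and WRKY40 were 7.47e-07 and 6.30e-07, with log2 fold changes of 2.12 and 1.65. Limma gave 20 members higher and 1 lower at an unadjusted p under 0.05. Limma-voom called 10 higher and 0 lower (1718 and 527 of all 25202 genes tested). The groups did not overlap in 21 members (61.0% of all tested genes), and the median log2 fold change was 0.52 for the members and 0.05 for all tested genes. Of the 7 genes that fell at 24 h against 12 h, the 2 WRKY75 genes were not among those that rose at 96 h, and WRKY75 Potri.015G099200 had a log2 fold change of -0.20 there (adjusted p = 0.16).

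At 336 h against 96 h, all 31 members were tested, 7 were called higher and 8 lower (2.71% and 4.96% of all tested genes). Higher were WRKY75 Potri.012G101000, Potri.015G099200 and Potri.T043800, both WRKY51 genes, WRKY76 and WRKY43. WRKY75 Potri.012G101000, WRKY51 Potri.007G079800 and WRKY76 passed the filter through the 336 h libraries alone and so had to differ, and the count of higher members without them is 4. Lower were both WRKY41 genes, WRKY40, WRKY33, WRKY18 and the 3 WRKY22 genes. The count of higher members was 4 without any 1 of the 3 libraries of 336 h, each time with 28 members tested. WRKY40 fell by 2.62 and WRKY18 by 1.39 on the log2 scale (adjusted p = 1.33e-06 and 3.76e-06). The groups did not overlap in 25 members (62.9% of all tested genes).

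Set against 12 h, 3 of 29 members were called higher and 6 lower at 336 h (5.04% and 4.67% of all tested genes). The higher ones were both WRKY51 genes and WRKY43, and the lower ones both WRKY41 genes, WRKY40, WRKY33 and WRKY22 Potri.003G132700 and Potri.002G164400. The last had a log2 fold change of -1.02 (SE 0.0794, adjusted p = 1.94e-05), and its call was lost without 12 h replicate 2 or 336 h replicate 3 (both -0.98). Limma-voom called 6 members higher and 9 lower, with 2053 and 1794 of all 25291 tested genes called. A pseudocount of 0.1 gave 5 and 7 members, for which no share of all genes is given here. WRKY51 Potri.007G079800 and WRKY41 Potri.001G092900 each reached 1 FPKM in only 1 library of the lower group. The groups did not overlap in 23 members (66.8% of all tested genes). Across these comparisons, 17 of the 31 members were called at least once, as were 15.1% of all 24204 genes tested at least once. The 17 include WRKY70, WRKY75 Potri.012G101000 and WRKY76. Each of their calls between LN times passed the filter through the higher group alone, so their groups had to differ.

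**Figure D4:**
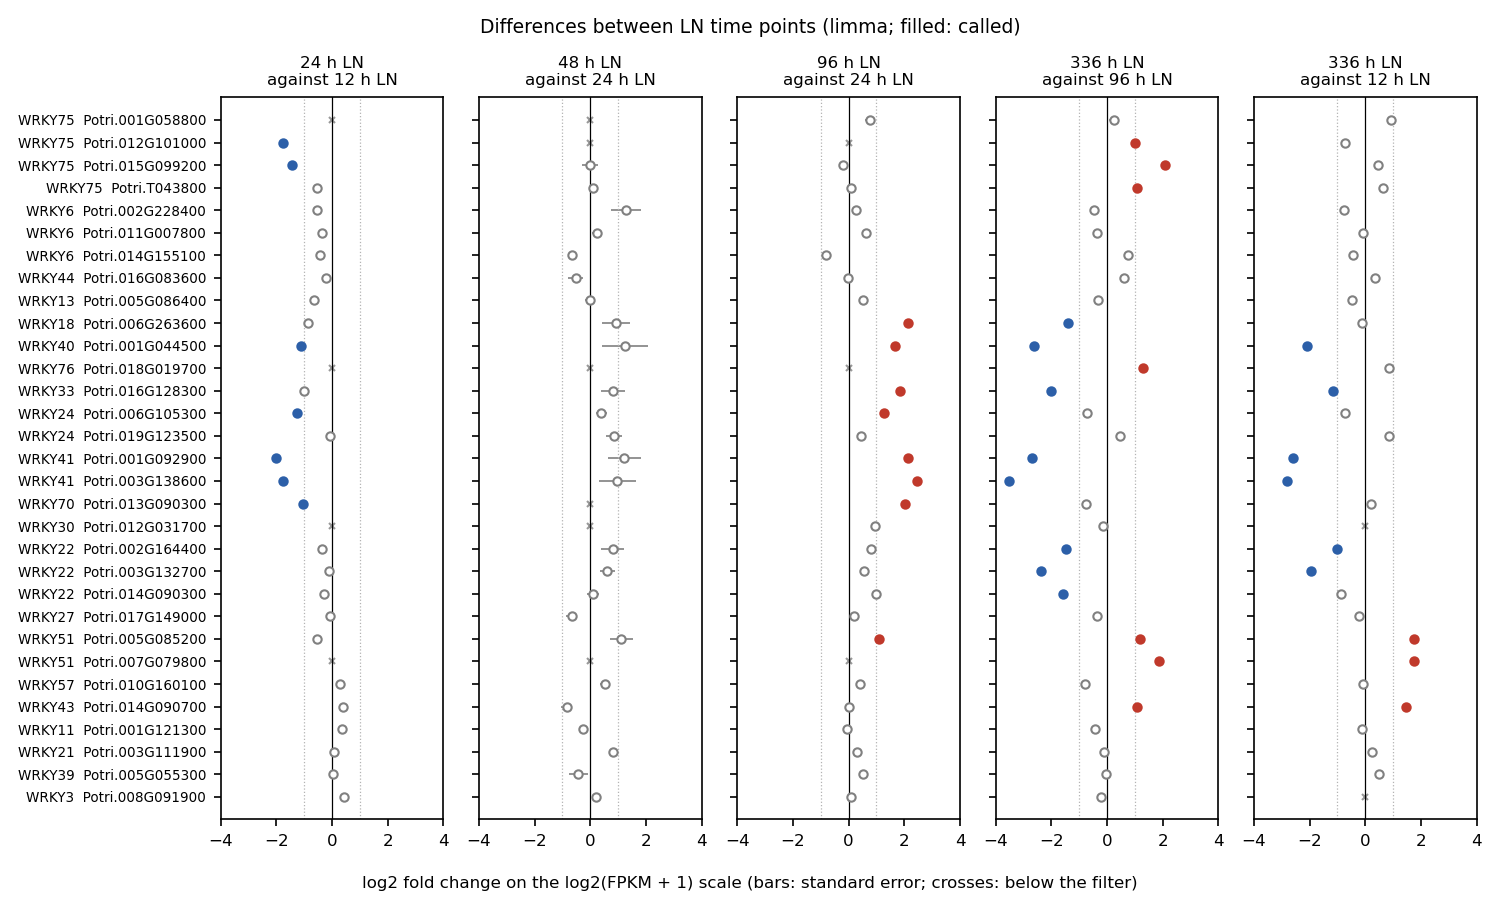
Log2 fold change of each WRKY gene (rows) between LN time points on the log2(FPKM + 1) scale, later time over earlier time, with its standard error (limma, 3 libraries a group). Filled red points are members called higher and filled blue points members called lower, dotted lines mark the limit of 1, open points were not called and crosses did not pass the filter; at 336 h against 96 h there are 7 red and 8 blue points, and at 48 h against 24 h there are none.

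At 48 h against 24 h, 0 of 25 members were called in either direction by limma (0.0694% higher and 0.369% lower of all tested genes). At an unadjusted p under 0.05, 4 members were higher and 3 lower. Limma-voom called 1 higher (22 of all 24882 genes tested), and a fit to all 18 libraries called 3 higher. Without 48 h replicate 3, 9 of 25 members were called higher and 0 lower (5.86% and 3.60% of all tested genes), with 16 higher and 7 lower at an unadjusted p under 0.05. They were WRKY40, both WRKY41 genes, WRKY6 Potri.002G228400, WRKY51 Potri.005G085200, WRKY18, WRKY33, WRKY22 Potri.002G164400 and WRKY24 Potri.019G123500. The result at this time thus turned on 1 library. With it, the groups did not overlap in 7 members (27.3% of all tested genes).

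Replicate 3 was lower than both other 48 h libraries by at least 1 on the log2 scale in 8 of the 25 members tested at 48 h against control (6.28% of all tested genes), and higher by as much in 1, WRKY39 (3.51%). Replicates 1 and 2 had no such member. The widest gap to the nearer of the other replicates was in WRKY40, at 3.03 on the log2 scale, followed by the WRKY41 genes at 2.29 and 2.07 and WRKY6 Potri.002G228400 at 1.87. In WRKY18 it was 1.81 and in WRKY33 1.52. WRKY75 Potri.015G099200 and WRKY44 went the other way, with gaps of 0.94 and 0.96. WRKY40 and the WRKY41 genes were also high in all 3 libraries of 96 h, whereas WRKY6 Potri.002G228400 was not.

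**Figure D5:**
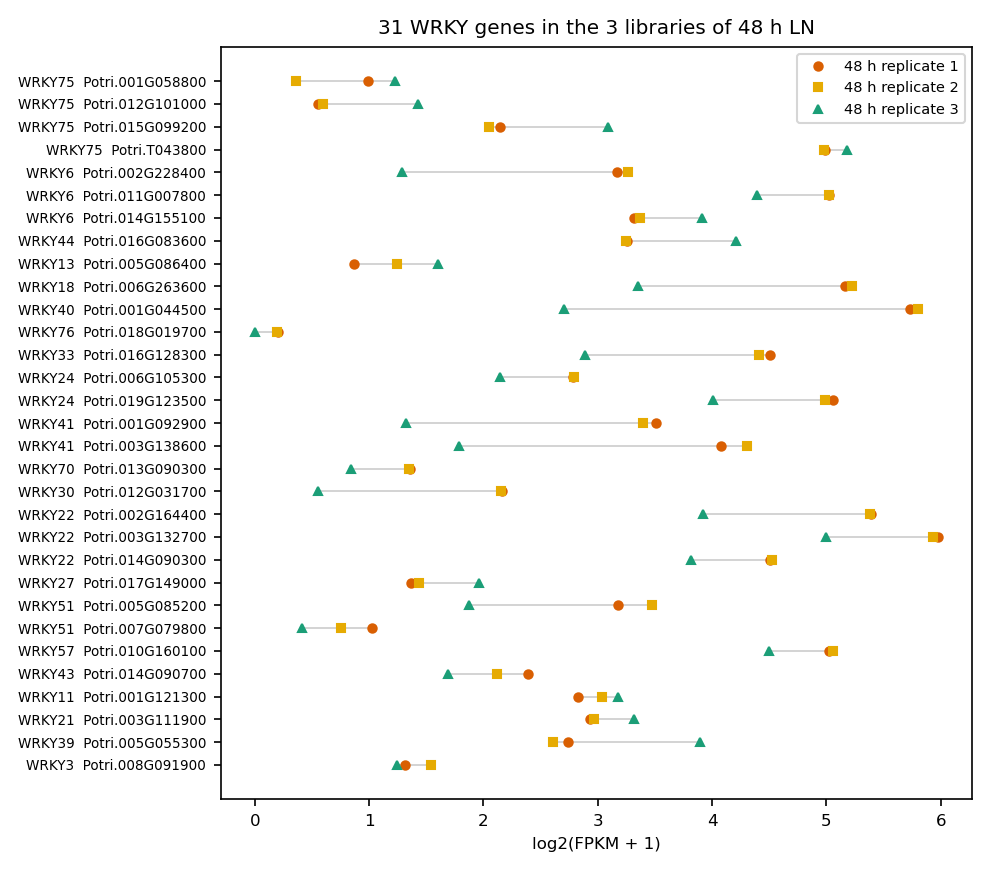
log2(FPKM + 1) of the 31 WRKY genes (rows) in the 3 libraries of 48 h LN: replicate 1 (orange circle), replicate 2 (yellow square) and replicate 3 (green triangle). Replicates 1 and 2 lie close together in most rows, and replicate 3 lies to the left by 3.03 in WRKY40 and to the right by 1.16 in WRKY39.

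Genes of the same pathways in the study's other tables were counted beside the members. They were likewise chosen by the study on these libraries and are no independent evidence of direction. Another 8 WRKY genes lay outside the list of 31. They were found by description, except Potri.005G203200, which the paper's text names WRKY28 and which limma called at no time. After 12 h 4 of 7 tested were called higher, and after 24 h 2 of 6 (6.21% and 4.29% of all tested genes). After 96 h 6 of 7 were called higher, and after 336 h 3 of 7 (8.18% and 8.28%). The genes called at 12 h and 96 h include WRKY46 Potri.002G168700, which was under 1 FPKM in all control libraries. It passed the filter through the LN libraries alone, so its groups had to differ. None of the 8 was called lower by limma or limma-voom at any time, and 0 were lower at an unadjusted p under 0.05. Limma and limma-voom each called 0 of them at 48 h, with 4 of 6 higher at an unadjusted p under 0.05 in limma, and without replicate 3 limma called 4 of 6 higher. Their summed level was 26.8 to 30.1 FPKM in control roots, 86.2 to 91.1 after 12 h, 43.8 to 47.6 after 24 h, 222 in each library at 96 h and 98.1 to 100.1 after 336 h. At 48 h it was 308, 328 and 35.8 FPKM in replicates 1, 2 and 3, so the same library stood apart.

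The products of the 7 tify genes include the JAZ repressors that jasmonate removes. After 12 h 4 of 7 tested were called higher, and after 24 h 2 of 5 (6.21% and 4.29% of all tested genes). After 96 h 4 of 7 were called higher, and after 336 h 3 of 6 (8.18% and 8.28%), with 1 lower (4.07%). Potri.001G166200, Potri.003G068900 and Potri.011G083900 were under 1 FPKM in all control libraries. Where tested against control, they passed the filter through LN libraries alone and had to differ. They were not tested at 48 h, at 90.5 to 180 FPKM in replicates 1 and 2 and under 1 FPKM in replicate 3. At 48 h limma called 0 of 4 tested, with 2 higher and 1 lower at an unadjusted p under 0.05, limma-voom called 1 lower, and without replicate 3 limma called 3 higher and 1 lower. The summed level of the 7 tify genes was 915 and 948 FPKM in 48 h replicates 1 and 2 and 40.8 FPKM in replicate 3. It lay between 37.3 and 99.1 FPKM in all other libraries. The gap between the 48 h libraries was therefore wider in the tify genes than in the sum of the 31 WRKY genes. The only gene found for salicylate response, 1 pathogenesis-related protein 1 gene, was at 0, 0 and 0.0174 FPKM in control replicates 1, 2 and 3. It passed the filter through the LN libraries alone, so its groups had to differ at all 5 time points, and it was called higher at each. The log2 fold changes over control were 2.16, 1.61, 1.72, 1.47 and 2.37 at 12, 24, 48, 96 and 336 h. These values depend on the pseudocount of 1, and nothing is read from the calls.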

How the data were processed

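RNA-seq of Populus ussuriensis roots was deposited by the authors as FPKM for 30485 genes in each of 18 libraries. Reads had been aligned to the Populus trichocarpa genome (gene IDs of version v3.0); the study's methods name Bowtie2 and TopHat2, the submitters' processing notes Bowtie2 2.2.3 and HISAT2 2.1.0, and the counting tool and its handling of reads shared between copies are not given in the sources used here. No fold changes or p-values of the authors' own comparisons, which the study's tables hold, were used.

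Whole fragments were recovered from the FPKM steps for all 30485 genes (within 0.001 of a whole number), giving 15945075 to 18193661 fragments per library. A limit of 3 fragments corresponds to about 0.1 FPKM at the median gene length of 1707 bp. FPKM were tested with limma 3.58.1 (R 4.3.3) on log2(FPKM + 1), using the 6 libraries of each of 10 comparisons, genes that reached 1 FPKM in 3 or more libraries, and Benjamini-Hochberg adjustment over all tested genes. The limits for a call were those of the study's methods, an absolute log2 fold change of 1 or more with an adjusted p under 0.05. Fold changes on this scale understate those of low genes. Alternatives were a pseudocount of 0.1, no filter, quantile normalization, all 18 libraries in 1 fit, a replicate block, limma-voom on recovered fragments (at least 10 in at least 3 libraries) and each library left out. The code was tested on simulated data.

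All 31 members are accounted for. Values in every library were given for members sharing a description, the largest rise and fall in each comparison between LN times, the highest and lowest mean level and the genes at the edge of the filter; WRKY33, WRKY18, WRKY40, WRKY70 and WRKY57 were added after their values were seen. Lists of VQ proteins and of MAP kinases had 0 matches by description. The members and lists were chosen with earlier results of these data known. No sequence is shown, since none was at hand here. Nothing in the labels says that replicates of a group were grown separately beyond calling them biological, so p-values measure the spread between these libraries.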

Additional observations from a re-analysis of the deposited data

Results flagged for a closer look

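Each value here was picked out because a comparison between 2 LN time points passed the threshold (limma, adjusted p under 0.05). No control library entered these comparisons. At 24 h against 12 h, 7 members were called lower (1.16% of all tested genes), or 5 without those that passed the filter through the higher group alone. The largest fall was in WRKY41 Potri.001G092900 (log2 fold change -2.01). At 96 h against 24 h, 8 members were called higher (3.87%), or 7 without such members, with the largest rise in WRKY41 Potri.003G138600 (2.47). At 336 h against 96 h, 7 members were called higher and 8 lower (2.71% and 4.96%), or 4 higher without such members. The largest rise there was in WRKY75 Potri.015G099200 (2.10) and the largest fall in WRKY41 Potri.003G138600 (-3.52). At 336 h against 12 h, 3 members were called higher and 6 lower (5.04% and 4.67%). The largest rise there was in WRKY51 Potri.007G079800 (1.76) and the largest fall in WRKY41 Potri.003G138600 (-2.82). Each of these 6 single-gene differences kept its call under every alternative, with any 1 library left out. What sets the time points apart was not tested.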

How the results depend on the processing

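No member changed direction in a called comparison under any alternative. Of the 39 calls between LN time points, quantile normalization and the fit to 18 libraries each ended 1 (WRKY51 Potri.005G085200 at 96 h against 24 h, 0.96, and WRKY40 at 24 h against 12 h), while a pseudocount of 0.1, no filter, the replicate block and limma-voom ended none. Of the 56 calls against control, quantile normalization ended 12, limma-voom 5 and the block 2. The number of all genes called moved with the setting too, so the member counts below are a record only. At 24 h against control, limma called 977 of 22792 genes higher and limma-voom 1624 of 24616. Member counts that moved were these. Lower at 12 h against control, 1 member: 3 with a pseudocount of 0.1, 3 with quantile normalization, 4 with limma-voom. Higher at 24 h, 4 members: 7 with a pseudocount of 0.1 and 8 with limma-voom. At 48 h, 5 higher and 1 lower: 12 and 2 with the 18-library fit, and 3 higher with the replicate block. At 96 h, 16 higher and 0 lower: 10 and 1 with quantile normalization, and 2 lower with limma-voom. Lower at 336 h, 2 members: 4 with limma-voom. Higher at 48 h against 24 h, 0 members: 3 with the 18-library fit and 1 with limma-voom. Higher at 336 h against 12 h, 3 members: 5 with a pseudocount of 0.1 and 6 with limma-voom.

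With each library left out in turn, the counts against control ranged from 6 to 12 higher and 1 to 2 lower at 12 h, 2 to 5 higher at 24 h, 0 to 7 higher and 0 to 2 lower at 48 h, 9 to 16 higher at 96 h and 7 to 14 higher at 336 h. Between LN times they ranged from 5 to 8 lower at 24 h against 12 h, 0 to 9 higher at 48 h against 24 h, 7 to 9 higher at 96 h against 24 h, 4 to 7 higher at 336 h against 96 h and 5 to 6 lower at 336 h against 12 h; the others did not move. Part of the drop follows from the filter, which needs 3 libraries over 1 FPKM and so tests fewer members. Shared replicate numbers gave no sign of pairing the samples, though low correlations cannot exclude a pairing. No comparison had all 3 correlations of same-numbered deviations over 0.1, and the lowest was -0.14 at 12 h against control. With the replicate block, the count at 48 h was 3, as above, and no other count moved by over 1.5 times.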
